A study of Mus musculus with 28 samples.

Results

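This account covers the chromatin peaks nearest to genes of 4 groups of G protein-coupled receptor names in mouse bone marrow-derived macrophages: chemokine receptors (symbols starting Ccr, Cxcr or Cx3cr, without Ccr7), P2Y purine receptors (P2ry), adhesion receptors (Adgr) and the mostly orphan receptors named Gpr. A peak belonged when its nearest mm10 protein-coding gene span, within 50 kb, carried such a symbol. The rule took 442 of the 71707 peaks in both count tables. Of these, 376 of 63313 peaks were of H3K27ac, a histone acetylation found at active promoters and enhancers, and 66 of 8394 were of the glucocorticoid receptor (GR). The gene table holds 134 such genes. Of these, 79 had an H3K27ac peak, and 6 more (Adgrd1, Adgrf5, Adgrg4, Gpr1, Gpr149 and Gpr37l1) had only GR peaks, so 85 genes were covered.

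The cells were grown from bone marrow of C57BL/6 males, 8 to 10 weeks old, and differentiated for 5 days with L-cell conditioned medium, which supplies the macrophage growth factor CSF1. All groups share that strain, sex and differentiation. They received vehicle, corticosterone at 500 nM (Cort, the natural rodent glucocorticoid), dexamethasone at 100 nM (Dex, a synthetic glucocorticoid) or IL4 at 10 ng/ml, the cytokine of alternative macrophage activation. The labels give 24 h of treatment, except that the H3K27ac vehicle titles state no time. H3K27ac has 3 libraries per group, from formaldehyde-fixed chromatin. GR chromatin was also fixed with disuccinimidyl glutamate. It has 4 libraries each for vehicle, Cort and Dex, with replicates 1 and 2 in batch 1 and 3 and 4 in batch 2, and 3 IL4 libraries, all in batch 2. The labels do not say whether libraries came from separate animals, so p-values cover the spread between these libraries, which may be technical. Because these are bulk libraries, fewer cells carrying a mark and less mark per cell cannot be told apart, and the transcripts of these genes were not measured.

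Chemokine receptors couple mainly to inhibitory G proteins and steer leukocytes along gradients of secreted chemokines. P2Y receptors sense extracellular nucleotides released by stressed or dying cells, and adhesion receptors carry long extracellular regions that are cleaved next to a tethered activating peptide. Many Gpr genes encode receptors with no agreed ligand, although some sense protons, lipids or metabolites, and a few symbols of this kind (Gpr89, Gpr107, Gpr137 and Gpr155) name membrane proteins of the Golgi or lysosome. GR is a steroid-activated transcription factor that binds DNA as a dimer at a palindrome with the arm AGAACA, while IL4 acts through STAT6.

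A start-site peak covers an annotated start of the gene or lies within 1 kb of it. The promoters of 6 members are shown because a start-site H3K27ac peak of each was called against vehicle. Gpr35 rose with both steroids, Cxcr4 rose with Dex and IL4, P2ry1 rose with IL4, and Cx3cr1, P2ry12 and Adgre4 fell with IL4. Each run is the 250 bases before the RefSeq start site in GRCm38.p6, the build underlying mm10, read along the gene. Capitals mark AGAACA or its complement TGTTCT, the arm of the GR palindrome. The windows are Cxcr4 chr1:128592300-128592549 on the minus strand, Gpr35 chr1:92972869-92973118 on the plus strand, P2ry1 chr3:61002535-61002784 on the plus strand, Cx3cr1 chr9:120068297-120068546 on the minus strand, P2ry12 chr3:59262986-59263235 on the minus strand and Adgre4 chr17:55749734-55749983 on the plus strand.
Cxcr4: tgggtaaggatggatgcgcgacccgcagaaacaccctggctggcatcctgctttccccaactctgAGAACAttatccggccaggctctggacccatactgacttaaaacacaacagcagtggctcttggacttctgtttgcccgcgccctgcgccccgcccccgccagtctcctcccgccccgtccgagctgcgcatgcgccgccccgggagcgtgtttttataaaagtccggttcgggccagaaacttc
Gpr35: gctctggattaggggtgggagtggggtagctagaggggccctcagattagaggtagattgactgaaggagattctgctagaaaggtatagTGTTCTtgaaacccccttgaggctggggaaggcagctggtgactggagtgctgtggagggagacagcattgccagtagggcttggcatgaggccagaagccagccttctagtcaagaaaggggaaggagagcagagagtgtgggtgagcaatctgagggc
P2ry1: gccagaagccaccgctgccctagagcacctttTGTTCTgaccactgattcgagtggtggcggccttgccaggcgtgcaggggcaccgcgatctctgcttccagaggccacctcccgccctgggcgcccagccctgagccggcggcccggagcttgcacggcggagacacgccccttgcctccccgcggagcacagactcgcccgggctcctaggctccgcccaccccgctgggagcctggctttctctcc
Cx3cr1: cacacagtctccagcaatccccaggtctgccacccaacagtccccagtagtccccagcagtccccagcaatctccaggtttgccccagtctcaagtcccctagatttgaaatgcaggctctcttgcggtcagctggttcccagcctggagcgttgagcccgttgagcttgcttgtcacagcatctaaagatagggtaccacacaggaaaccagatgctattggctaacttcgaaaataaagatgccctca
P2ry12: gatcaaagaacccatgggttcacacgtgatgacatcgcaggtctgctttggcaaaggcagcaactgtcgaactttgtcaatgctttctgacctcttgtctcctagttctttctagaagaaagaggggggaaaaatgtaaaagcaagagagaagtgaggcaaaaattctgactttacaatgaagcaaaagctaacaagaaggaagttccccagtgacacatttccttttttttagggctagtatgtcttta
Adgre4: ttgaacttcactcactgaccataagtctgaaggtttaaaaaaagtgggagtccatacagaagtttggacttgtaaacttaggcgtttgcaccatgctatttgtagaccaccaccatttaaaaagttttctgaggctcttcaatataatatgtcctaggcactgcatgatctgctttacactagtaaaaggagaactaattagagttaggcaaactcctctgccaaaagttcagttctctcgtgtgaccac

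The arm starts 185 bases before the Cxcr4 start, 160 before that of Gpr35 and 218 before that of P2ry1, whose peak was not called with either steroid. The other 3 windows hold none. Of 129 member promoters in the RefSeq table, 23 (17.8%) hold the arm on either strand, against 16.1% of all 32851. The full palindrome AGAACANNNTGTNCT is in none of the 129 and in 0.0365% of all. A STAT6-type site, TTCNNNNGAA, is in 3.88% of member promoters and 5.85% of all, and the general STAT spacing TTCNNNGAA in 6.98% and 7.02%. A match of letters is a description of the sequence and not a binding site.

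H3K27ac libraries held 6829787 to 15695771 counts in peaks, and GR libraries 900063 to 1981582. A single GR peak held up to 59.2% of a GR library's counts in peaks. The label was checked against markers: all 10 macrophage marker genes had H3K27ac peaks, with summed levels of 3235 to 4488 CPM (counts per 1000000 scaled counts in tested peaks), against 1 of 8 fibroblast genes, 4 of 8 neutrophil genes and 4 of 8 lymphoid genes. Summed dendritic-cell marker peaks (6 of 6 genes with peaks) spanned 351 to 509 CPM in vehicle and 228 to 307 CPM in IL4, lymphoid marker peaks 256 to 344 and 162 to 247 CPM, and erythroid or megakaryocyte marker peaks (2 of 6 genes) 72.4 to 77.9 and 38.5 to 45.2 CPM. Marker lists that were higher in IL4 were those of osteoclasts (5 of 6 genes), at 1060 to 1224 CPM in vehicle and 1370 to 1538 in IL4, of endothelium (3 of 4), at 238 to 254 and 257 to 279, and of fibroblasts, at 53.0 to 61.8 and 69.1 to 87.9. The part of these markers in the IL4 results was not tested.

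The peaks were spread unevenly over the 4 groups. Chemokine receptor genes had 74 H3K27ac peaks at 16 of 18 genes, with none at Ccr4 or Ccr8, which mark T helper cells. P2Y genes had 40 peaks at 8 of 9 genes, with none at P2ry4. Adhesion genes had 93 peaks at 13 of 27 genes, with none at the brain angiogenesis inhibitors Adgrb1, Adgrb2 and Adgrb3. Gpr genes had 169 peaks at 42 of 80 genes. Of all 376 peaks, 229 (60.9%) lay inside the gene span, against 74.0% of the peaks with any gene. An annotated start site was covered by, or within 1 kb of, 44 peaks. For 42 peaks another gene was equally near, among them Med12l, whose span contains P2ry12, P2ry13, P2ry14 and Gpr171. Such peaks cannot be given to either gene by position.

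The densest member peaks in vehicle were near Ccr1 and Ccr3. Per kilobase of peak, the mean vehicle level was 42.3 CPM at a peak 27.9 kb outside Ccr1, a receptor for CCL3 and CCL5. It was 34.6 CPM per kb near Ccr3, the eotaxin receptor, and 24.2 near Ccr2, the monocyte receptor for CCL2. The peak of P2ry6, the UDP receptor, 23089 bp long, held 602 ± 34.0 CPM (SD, n = 3) in vehicle, or 26.1 per kb. Among adhesion genes Adgre1, which encodes the macrophage antigen F4/80, led with 28.5 CPM per kb. Gpr19 and Gpr107 led the Gpr genes with 29.6 and 27.8 CPM per kb. Of these 7 peaks, only those of Gpr19 and Gpr107 were called in any comparison with vehicle without the replicate block explained below, both lower with IL4.

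A peak was called when edgeR's quasi-likelihood test gave an adjusted p under 0.05 over all peaks tested, 59881 for H3K27ac, of which 360 were members. Log2 values are fitted fold changes with their standard error. Cort raised 5 member peaks (1.39%, against 1.18% of all tested) and lowered 1 (0.278%, against 0.376%). Dex raised 9 (2.50%, against 2.9%) and lowered 7 (1.94%, against 2.34%). IL4 raised 49 (13.6%, against 14.7%) and lowered 58 (16.1%, against 12.9%). The median log2 fold change of the members was -0.05 with Cort, -0.01 with Dex and -0.09 with IL4, and that of all tested peaks 0.00, 0.01 and -0.02. All 3 comparisons share the vehicle libraries.

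Libraries of the same number deviated together in H3K27ac. A fit with the number as a block called more peaks in every comparison except Dex against Cort. The H3K27ac calls and adjusted p-values given here leave out this pairing unless the block is named, so the steroid counts without it are the smaller ones. With the block, Cort raised 31 and lowered 28 member peaks (6.44% and 6.13% of all tested), Dex raised 41 and lowered 43 (9.91% and 10.3%), and IL4 raised 75 and lowered 102 (21.9% and 21.6%). The balance of the Dex calls moved with the scaling: 9 higher and 12 lower under total-count scaling, and 14 higher and 4 lower when scaled on the lowest-count peaks. Over all peaks tested, the share of Cort calls that were higher went from 75.8% to 63.2% and 88.1% under the same alternatives, and to 63.7% with DESeq2.

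**Figure D1:**
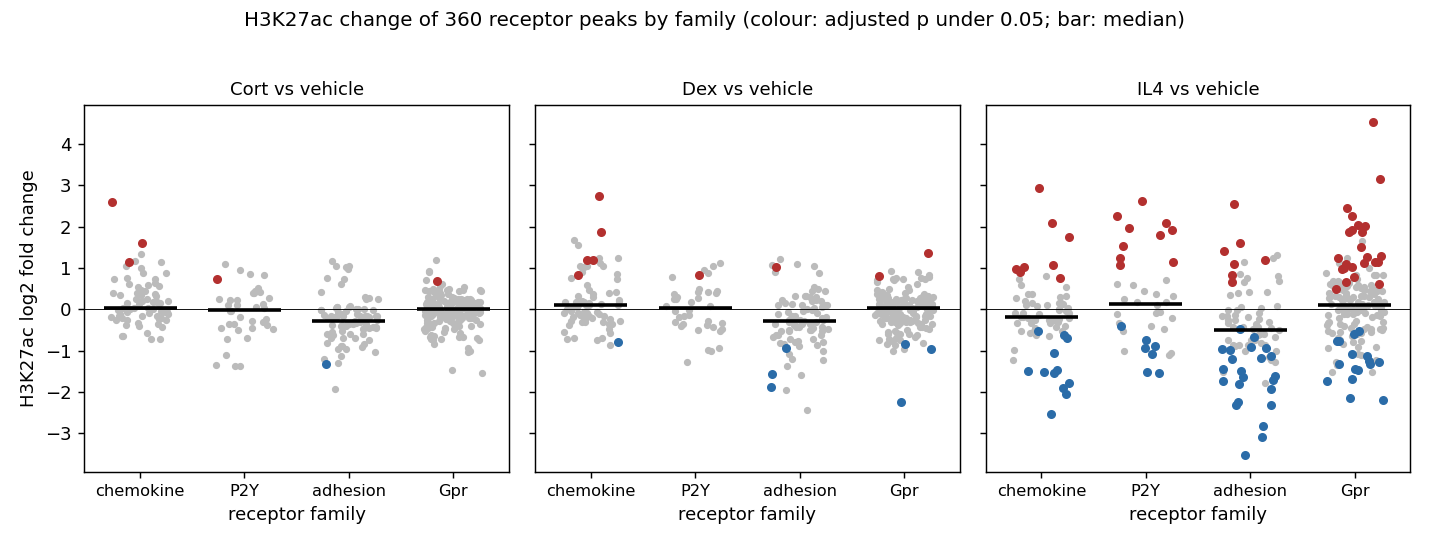
Log2 fold change against vehicle (vertical axis) of every tested H3K27ac member peak, by receptor group and treatment, with called peaks marked. Points for IL4 spread much farther than those for the steroids, and the adhesion group has its median below 0 in all 3 comparisons.

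By group, the steroid calls were few without the replicate block, and the largest called change with each steroid was at Cxcr4. With Dex the next largest was a fall of 2.25 at a Gpr157 peak. Of all tested peaks Cort raised 1.18% and lowered 0.376%, and Dex raised 2.9% and lowered 2.34%. Cort raised 3 (4.11%) and lowered none of 73 chemokine receptor peaks. Dex raised 5 (6.85%) and lowered 1 (1.37%) of them. Their medians were 0.04 with Cort and 0.09 with Dex. Of 38 P2Y peaks, each steroid raised 1 (2.63%) and lowered none. Of 85 adhesion peaks, Cort lowered 1 (1.18%) and Dex raised 1 (1.18%) and lowered 3 (3.53%), and the median was -0.28 with each. Of 164 Gpr peaks, Cort raised 1 (0.61%) and Dex raised 2 (1.22%) and lowered 3 (1.83%). By gene, Cort raised peaks of 4 genes and lowered those of 1, with 74 genes not called. Dex raised peaks of 7 genes and lowered those of 5, with 67 not called. With the replicate block, Cort raised peaks of 14 genes, lowered those of 15, moved 3 in both directions and left 47 not called. For Dex these were 15, 17, 6 and 41 genes. By peak, with the block, Cort raised 13 (17.8%) and lowered 3 (4.11%) chemokine receptor peaks, against 6.44% and 6.13% of all tested. It raised 7 (18.4%) and lowered 6 (15.8%) P2Y peaks. For adhesion peaks these were 7 (8.2%) and 10 (11.8%), and for Gpr peaks 4 (2.44%) and 9 (5.49%). The Dex counts with the block were 14 and 6, 10 and 5, 6 and 18, and 11 and 14 in the same order. As shares these were 19.2% and 8.22%, 26.3% and 13.2%, 7.06% and 21.2%, and 6.71% and 8.54%. Of all tested peaks the shares were 9.91% and 10.3%.

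Cxcr4, the receptor for CXCL12 that holds cells in the marrow, had the largest called change with each steroid. At the H3K27ac peak chr1:128613824-128616602, 21.5 kb outside the gene, the vehicle libraries measured 8.79, 7.86 and 6.33 CPM. Cort libraries measured 41.1, 36.7 and 61.3 CPM, Dex libraries 50.2, 34.4 and 69.0, and IL4 libraries 16.0, 14.6 and 17.1. Every steroid library lay above every IL4 library, and every IL4 library above every vehicle library. The peak rose by 2.60 ± 0.27 with Cort (adjusted p = 0.000207), by 2.75 ± 0.27 with Dex (adjusted p = 8.07e-05) and by 1.06 ± 0.26 with IL4 (adjusted p = 0.00838).

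A farther Cxcr4 peak, chr1:128631738-128633582, held 6.19, 7.70 and 4.09 CPM in vehicle, 17.4, 18.5 and 18.1 with Cort, and 18.8, 23.7 and 22.5 with Dex. It rose by 1.59 ± 0.25 with Cort (adjusted p = 0.00594) and 1.86 ± 0.25 with Dex (adjusted p = 0.00102), and its IL4 libraries, at 4.44, 8.51 and 6.57 CPM, overlapped vehicle. At the Cxcr4 start-site peak, vehicle held 43.0, 28.3 and 44.4 CPM, Cort 80.8, 59.3 and 121, Dex 90.7, 57.2 and 118, and IL4 59.4, 67.0 and 88.3. All treated libraries lay above all vehicle libraries, with log2 values of 1.17 (adjusted p = 0.0706) for Cort, 1.20 (0.0324) for Dex and 0.89 (0.0366) for IL4. The Cort adjusted p was 2.4e-06 with the replicate block. The Dex call at the start site was lost in 5 of the 6 fits that each left out a library, all but that without Dex replicate 2, with an adjusted p of up to 0.143 without vehicle replicate 2. The IL4 call was lost in all but that without IL4 replicate 1 (adjusted p up to 0.147).

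Ccr6, the receptor for CCL20, had a peak 9.71 kb outside the gene with 5.57, 9.91 and 7.75 CPM in vehicle, 14.9, 19.2 and 17.5 with Cort and 14.7, 16.9 and 22.1 with Dex. It rose by 1.14 ± 0.23 (adjusted p = 0.0235) and 1.20 ± 0.23 (0.00879), with no overlap between the vehicle and steroid libraries. The Ccr1 peak chr9:123935983-123943745, 18.4 kb outside, held 90.1, 91.1 and 86.2 CPM in vehicle and 200, 138 and 138 with Dex, and rose by 0.83 ± 0.19 (adjusted p = 0.0226). Its Cort libraries, 194, 136 and 114 CPM, also lay above vehicle, at 0.73 (adjusted p = 0.0775, and 0.00011 with the block). On the same chromosome, a peak of the Ccr1-like gene Ccr1l1 fell by 0.79 with Dex (adjusted p = 0.0273), from 27.2, 33.7 and 29.3 CPM to 19.7, 16.2 and 16.4.

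Gpr35, an orphan receptor proposed to sense tryptophan metabolites, rose at its start site with both steroids. The peak held 30.1, 29.6 and 30.9 CPM in vehicle, 48.8, 45.7 and 51.6 with Cort and 52.1, 60.2 and 45.8 with Dex. The log2 values were 0.69 ± 0.14 (adjusted p = 0.0225) and 0.80 ± 0.14 (0.00462), while the IL4 libraries, 37.5, 32.4 and 40.4 CPM, lay above vehicle without a call (0.28, adjusted p = 0.142). A peak inside P2ry14, the UDP-glucose receptor, and equally inside Med12l held 19.9, 25.4 and 22.9 CPM in vehicle, 40.1, 33.9 and 39.2 with Cort and 41.5, 39.7 and 40.4 with Dex. It rose by 0.73 ± 0.14 (adjusted p = 0.0216) and 0.83 ± 0.14 (0.00498), with no overlap.

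Inside Gpr141, an orphan receptor gene, a peak rose past the threshold with Dex and not with Cort. Vehicle held 9.53, 4.83 and 6.26 CPM, Cort 12.2, 11.5 and 9.88, and Dex 19.3, 15.8 and 17.5, so that all Dex libraries lay above all Cort libraries. The change was 1.37 ± 0.25 with Dex (adjusted p = 0.00725) and 0.72 ± 0.25 with Cort (adjusted p = 0.207, and 0.0052 with the block). The direct difference, Dex over Cort, was 0.65 (95% interval 0.12 to 1.17) with an adjusted p of 0.9999.

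Among the peaks that fell, an intragenic peak of Adgrv1, the very large adhesion receptor of hair-cell stereocilia, was lower with every treatment. It held 16.8, 29.4 and 24.1 CPM in vehicle, 8.50, 12.2 and 7.41 with Cort, 6.36, 8.76 and 8.48 with Dex and 4.56, 5.59 and 4.06 with IL4. The values were -1.31 ± 0.25 with Cort (adjusted p = 0.0168), -1.57 ± 0.25 with Dex (0.00294) and -2.31 ± 0.26 with IL4 (4.78e-05), with no treated library reaching the lowest vehicle library. A pair of other Adgrv1 peaks fell with Dex by 0.93 and 1.88, of which the smaller call was lost in all fits but that without Dex replicate 3 (adjusted p up to 0.17) and the larger without vehicle replicate 3 (0.0592). With Dex, peaks of the proton sensor Gpr4 (-0.95, adjusted p = 0.046), of Gprc5c (-0.83, 0.042) and of Gpr157 (-2.25, 0.0417) also fell.

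**Figure D2:**
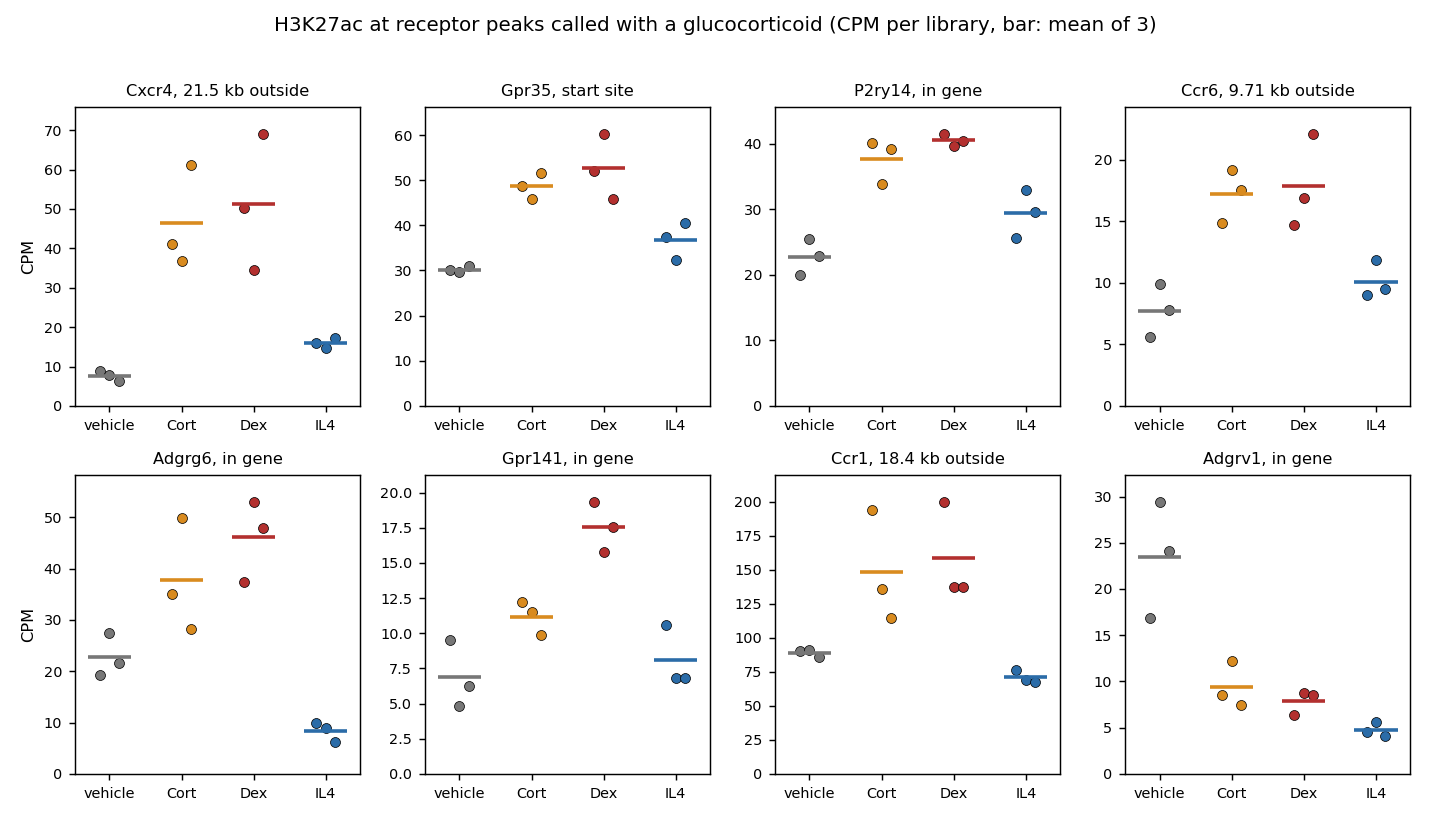
H3K27ac level (CPM, vertical axis) in each of the 12 libraries at 8 member peaks called with a steroid, by treatment, with bars at group means. The vehicle and Dex libraries do not overlap in any of the 8 panels, and at Gpr141 all Cort libraries lie between them.

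Of the 6 Cort calls, only those of both distal Cxcr4 peaks were kept when each of the 6 libraries was left out in turn. All H3K27ac fits that left out a library were run without the replicate block, so they do not show whether a lost call would hold with the libraries paired. Ccr6 was lost without Cort replicate 2 or 3 or vehicle replicate 1 or 3 (adjusted p up to 0.107), P2ry14 without Cort replicate 1 or 3 or vehicle replicate 1 or 3 (up to 0.0984), Gpr35 in 5 of 6 fits, all but that without Cort replicate 2 (up to 0.0914), and Adgrv1 without Cort replicate 1 or 3 or vehicle replicate 2 or 3 (up to 0.0835). Of the 16 Dex calls, 7 were kept in all 6 fits: the distal Cxcr4 pair, Ccr6, Gpr35, P2ry14, Gpr141 and the Adgrv1 peak described. The Ccr1 call was lost without Dex replicate 1 or any vehicle replicate (adjusted p up to 0.101), and that of Ccr1l1 in 5 fits, all but that without vehicle replicate 1 (up to 0.111). Gpr4 was lost in all 6 fits (up to 0.20), Gprc5c in all but that without vehicle replicate 1 (up to 0.155) and Gpr157 without Dex replicate 1 or 3 or vehicle replicate 2 or 3 (up to 0.169). The number of Dex calls ranged from 6 to 18 higher, the most without Dex replicate 2, and from 1 to 10 lower, the fewest without vehicle replicate 3, and 2 lower without Dex replicate 1 or vehicle replicate 2 and 3 without Dex replicate 3.

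No member peak was called between Dex and Cort by edgeR, nor was any of the 59881 (0%). DESeq2 also called none. At an unadjusted p under 0.05 there were 2 of 360 members and 793 of all peaks, and with the replicate block 12 and 2293, still with no call. For 214 members (59.4%, against 60.7% of all tested) both ends of the 95% interval were less than 1 log2 unit from 0, and for the rest the interval includes a larger difference. The doses, 100 nM Dex and 500 nM Cort, differ.

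IL4 changed more members and by larger amounts than the steroids, and its calls were also more numerous over all tested peaks. IL4 raised peaks of 17 genes, lowered peaks of 23, moved peaks of 6 genes in both directions and left 33 with no call. With the replicate block these were 24, 31, 8 and 16 genes. Of 73 chemokine receptor peaks 8 rose and 12 fell, of 38 P2Y peaks 10 rose and 7 fell, of 85 adhesion peaks 7 rose and 23 fell, and of 164 Gpr peaks 24 rose and 16 fell. The median log2 values were -0.19, 0.13, -0.50 and 0.11 in the same order, beside -0.02 over all tested peaks. Of the 44 start-site peaks, 6 rose (Ccr1, Cxcr2, Cxcr4, Gpr176, Gpr89 and P2ry1) and 10 fell (Adgre4, Adgrg6, Cx3cr1, Cxcr3, Gpr18, Gpr19, Gpr31b, Gpr82, Gpr84 and P2ry12). With the block IL4 raised 12 (16.4%) and lowered 20 (27.4%) chemokine receptor peaks and raised 13 (34.2%) and lowered 11 (28.95%) P2Y peaks. It raised 10 (11.8%) and lowered 35 (41.2%) adhesion peaks and raised 40 (24.4%) and lowered 36 (21.95%) Gpr peaks. The shares of all tested peaks with the block were 21.9% and 21.6%. At start sites 10 peaks rose and 15 fell with the block. The shares of start-site peaks of all genes were not computed, so the start-site counts have no background to be read against.

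**Figure D3:**
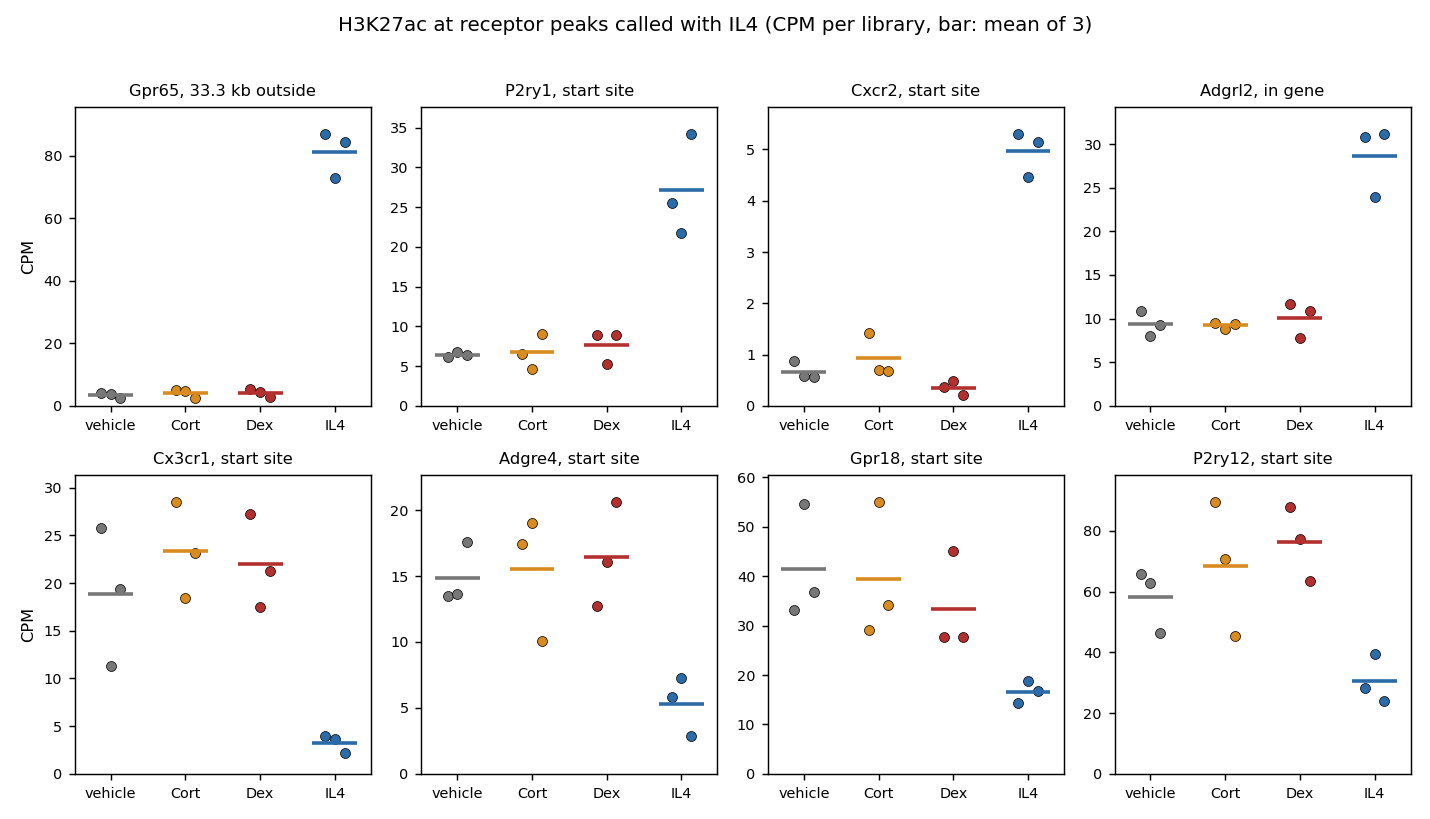
H3K27ac level (CPM, vertical axis) in each of the 12 libraries at 8 member peaks called with IL4, by treatment, with bars at group means. Gpr65, P2ry1, Cxcr2 and Adgrl2 lie above every vehicle library in IL4, and Cx3cr1, Adgre4, Gpr18 and P2ry12 below.

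Cx3cr1, the receptor for the membrane-bound chemokine fractalkine on monocytes and resident macrophages, fell with IL4 at every tested peak. The 6 changes were falls of 1.49 to 2.54, and none of these peaks was called with a steroid, except 1 of them with Cort when the block was used (0.37, adjusted p = 0.0294). The start-site peak held 25.8, 11.3 and 19.4 CPM in vehicle and 3.94, 3.65 and 2.23 with IL4 (-2.54 ± 0.32, adjusted p = 0.00012). A peak 9.72 kb outside the gene, chr9:120036026-120038964, held 50.5, 31.7 and 39.2 CPM in vehicle and 10.7, 7.21 and 11.2 with IL4 (-2.06 ± 0.24, adjusted p = 6.73e-05). The lowest vehicle library exceeded the highest IL4 library at both. With Dex the start-site libraries, 27.3, 17.4 and 21.3 CPM, overlapped vehicle.

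Cxcr3, the receptor for interferon-induced chemokines, fell with IL4 at its start site, from 16.8, 17.4 and 20.8 CPM to 8.26, 7.37 and 10.8 (-1.06, adjusted p = 0.0198, and up to 0.0788 without IL4 replicate 1 or 2 or vehicle replicate 3), and at a peak 11.9 kb away (-1.46, 0.00937). A pair of Ccr3 peaks fell by 0.70 and 0.63, and a pair of Cxcr5 peaks by 1.51 and 0.52, the second of these being tied with Bcl9l. In the other direction, Cxcr2, the receptor for neutrophil-attracting chemokines, rose at its start site from 0.867, 0.573 and 0.558 CPM to 5.30, 4.46 and 5.14 (2.92 ± 0.35, adjusted p = 7.09e-05). The vehicle level of that peak was under 1 CPM in all 3 libraries. The Ccr1 start-site peak rose with IL4 by 1.75 (adjusted p = 0.0114, and up to 0.0542 without vehicle replicate 2 or 3), from 17.1, 7.62 and 7.20 CPM to 45.6, 30.7 and 29.2. Both called peaks of Ccrl2, an atypical receptor that binds chemerin, rose with IL4, by 1.01 and 0.97, and a Cxcr6 peak tied with Fyco1 rose by 0.77.

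P2ry1 and P2ry12, which both respond to ADP but couple to different G proteins, moved in opposite directions. Of 7 tested P2ry1 peaks, 6 rose with IL4. The start-site peak held 6.19, 6.72 and 6.39 CPM in vehicle and 25.5, 21.7 and 34.2 with IL4 (2.08 ± 0.27, adjusted p = 0.00014). A peak 26.1 kb outside the gene rose by 2.62 ± 0.33 (adjusted p = 0.000116), from 3.22, 2.13 and 2.42 CPM to 20.5, 14.6 and 12.6. Of 6 tested P2ry12 peaks, 3 fell and none rose. Its start-site peak, tied with Med12l, held 65.6, 62.7 and 46.4 CPM in vehicle and 28.1, 39.4 and 23.8 with IL4 (-0.93 ± 0.25, adjusted p = 0.0131), with no overlap. That call was lost without IL4 replicate 1 or 3 (adjusted p up to 0.0684).

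The neighbouring P2ry14, in the same Med12l span, had 3 of 9 tested peaks raised by IL4, by 1.07, 1.52 and 1.92, and none lowered. P2ry10b, a paralogue of a lysophosphatidylserine receptor gene, had 3 of 4 tested peaks lowered, by 0.89 to 1.54. P2ry2, the ATP and UTP receptor, had a peak that rose by 1.97 (from 1.73, 1.06 and 0.992 CPM to 5.05, 3.97 and 5.42) and another that fell by 1.07 (from 34.4, 48.5 and 37.0 CPM to 20.2, 16.9 and 20.0). At the densest P2Y peak, that of P2ry6, IL4 libraries held 646, 693 and 686 CPM, all above the 586, 642 and 580 of vehicle, at 0.16 with an adjusted p of 0.217 (0.0596 with the block).

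Adhesion peaks held more falls than rises with IL4, with 9 of the 23 falls at Adgrv1 and 6 at Adgrg6. Of the 13 adhesion genes, 4 had only falls, 2 only rises, 3 had both and 4 had no call. Adgrg6, a receptor known from Schwann cell myelination, had 6 of 8 tested peaks lowered and none raised. The intragenic peak chr10:14516433-14518531 went from 15.1, 31.4 and 19.2 CPM in vehicle to 1.73, 3.00 and 1.01 with IL4 (-3.52 ± 0.59, adjusted p = 0.000747). Cort libraries there held 5.67, 22.1 and 7.18 CPM and Dex libraries 5.38, 15.0 and 7.67, neither called without the block (adjusted p = 0.482 and 0.199) and both called with it (0.0005 and 2.1e-05).

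A different Adgrg6 peak, chr10:14529566-14532526, moved in opposite directions with Dex and IL4. It held 19.3, 27.4 and 21.5 CPM in vehicle, 35.1, 49.9 and 28.3 with Cort, 37.4, 53.0 and 47.9 with Dex, and 9.98, 8.91 and 6.29 with IL4. Every Cort and Dex library lay above every vehicle library and every IL4 library below. The changes were 1.02 ± 0.23 with Dex (adjusted p = 0.0224), -1.45 ± 0.24 with IL4 (0.000814) and 0.73 with Cort (0.155, and 0.0018 with the block). Dex exceeded IL4 by 2.47 ± 0.25 (adjusted p = 1.6e-05). The Dex call was lost without Dex replicate 3 or vehicle replicate 1 or 3, with an adjusted p of up to 0.0884.

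Adgre4, a myeloid relative of F4/80, had 3 of 6 tested peaks lowered by IL4. Its start-site peak went from 13.5, 13.6 and 17.6 CPM to 5.79, 7.29 and 2.84 (-1.50 ± 0.33, adjusted p = 0.00423), and an intragenic peak from 19.1, 22.5 and 26.4 to 5.54, 7.05 and 6.63 (-1.82 ± 0.22, adjusted p = 8.94e-05). Adgre1 itself had 1 of 19 tested peaks called, a peak of 256 bp that fell by 0.94 (adjusted p = 0.0476). Adgrv1 had 9 of 17 tested peaks lowered and 1 raised. Adgrl2, a latrophilin, had an intragenic peak that rose from 10.9, 8.03 and 9.24 CPM to 30.8, 23.9 and 31.1 (1.61 ± 0.19, adjusted p = 7.41e-05), and another that fell by 0.67. Adgre5, which encodes CD97, had 1 peak raised by 0.66 and 1 lowered by 0.48.

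Gpr65, a proton-sensing receptor, had the largest rise of any member with IL4. At chr12:98310006-98313689, 33.3 kb outside the gene, vehicle libraries held 4.21, 3.93 and 2.60 CPM and IL4 libraries 87.0, 72.9 and 84.3. Cort (5.24, 4.67 and 2.47 CPM) and Dex (5.38, 4.34 and 3.00 CPM) overlapped vehicle. The IL4 change was 4.53 ± 0.28 (adjusted p = 9.83e-07). Of 13 tested Gpr65 peaks, 5 rose and none fell, the others by 1.10 to 2.27. A peak of Gpr4, another proton sensor, fell by 0.76 (adjusted p = 0.038).

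Other Gpr genes moved at several peaks. Gpr176, a receptor of the circadian clock, had 4 of 9 tested peaks raised, and its start-site peak went from 14.7, 7.29 and 16.9 CPM to 32.5, 24.1 and 29.2 (1.14, adjusted p = 0.007). Gpr15, a gut-homing receptor of T cells, had a distal peak raised by 2.45. Gpr157 had 3 of 10 peaks raised and 1 lowered. Of 9 tested peaks of Gpr107, a Golgi protein, 2 intragenic peaks rose, by 2.01 (adjusted p = 5.01e-05) and 3.15 (0.000112). Its densest peak fell by 0.60 ± 0.11 (adjusted p = 0.0013), from 117, 146 and 129 CPM to 82.8, 89.3 and 85.8.

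Other Gpr peaks fell with IL4. Gpr18, a proposed receptor of lipid mediators, fell at its start site, tied with Ubac2, from 33.2, 54.5 and 36.8 CPM to 14.3, 18.7 and 16.7 (-1.32 ± 0.27, adjusted p = 0.00315). Gpr84, a receptor for medium-chain fatty acids, fell by 0.53 (adjusted p = 0.0246, and up to 0.0838 without IL4 replicate 1 or 3 or vehicle replicate 2) at a start-site peak of 163, 193 and 165 CPM in vehicle and 112, 128 and 120 with IL4. Gpr119, an oleoylethanolamide receptor, fell by 1.46 at a peak 5.37 kb outside the gene, and a pair of peaks of Gpr174, a lysophosphatidylserine receptor, fell by 1.08 and 2.16. Gpr19 fell by 0.78 at its start site, and Gpr31b by 1.73.

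**Figure D4:**
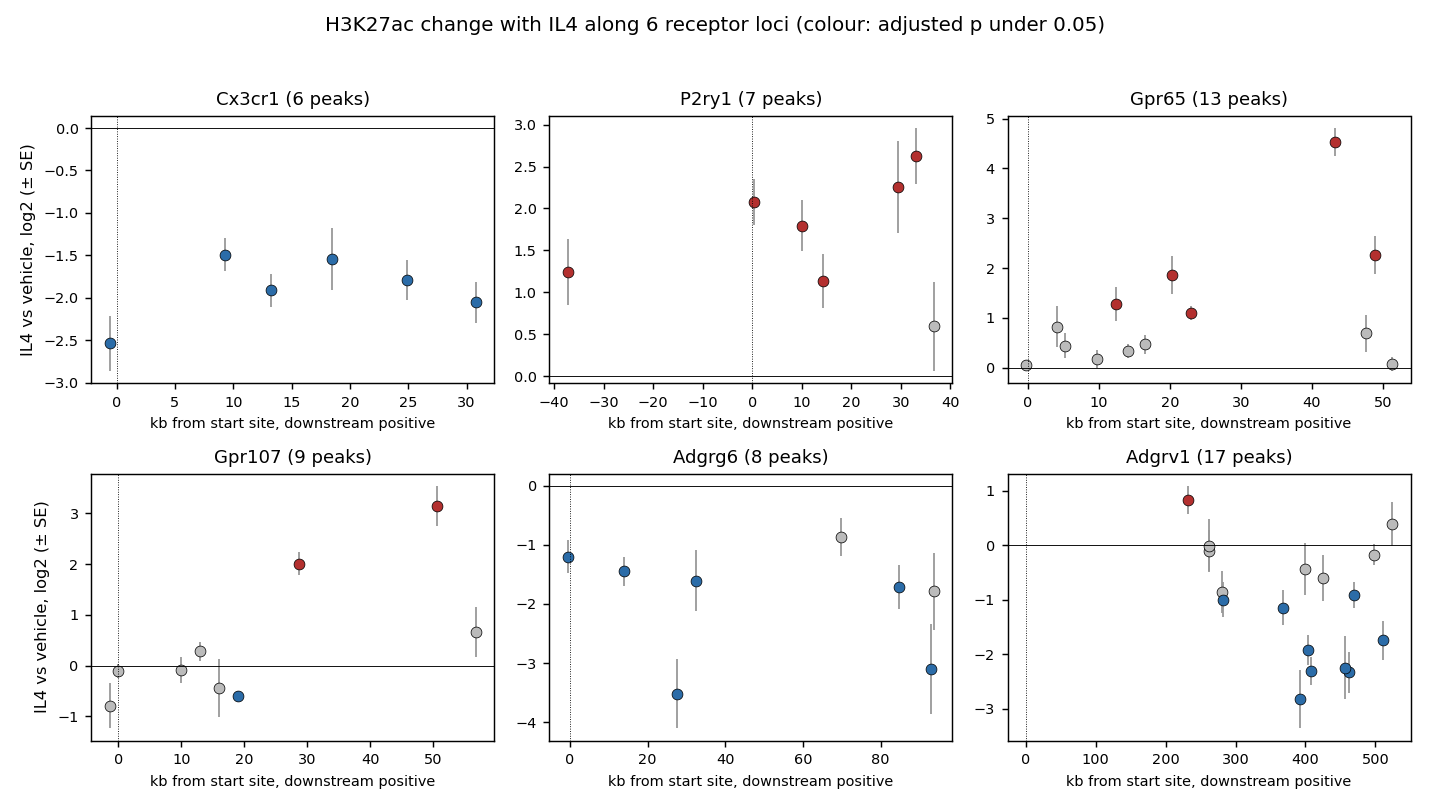
Log2 fold change with IL4 ± SE (vertical axis) of each tested H3K27ac peak against its distance in kb from the start site (horizontal axis) at Cx3cr1, P2ry1, Gpr65, Gpr107, Adgrg6 and Adgrv1. All 6 Cx3cr1 peaks lie below 0, all P2ry1 calls lie above, and the called peaks of Gpr107 and Adgrv1 lie on both sides.

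Of the 107 IL4 calls, 59 were kept in every fit that left out 1 of the 6 libraries. Leaving out IL4 replicate 3 gave 37 falls in place of 58. Beside the losses given above, at least 1 such fit lost the distal Cxcr3 peak, the tied Cxcr5 peak, the Adgre1 peak, both Adgre5 peaks, the Gpr4 and Gpr31b peaks, the Adgrl2 peak that fell, and a called peak each of Ccr3, Ccrl2, P2ry14, P2ry10b and Gpr174, with an adjusted p of up to 0.177, at Adgre1. The calls of Cx3cr1, Gpr65, Gpr107, Adgre4, Gpr18 and the P2ry1 peaks at the start site and 26.1 kb away held in every fit, and the other losses were of peaks counted but not described here.

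Set directly against IL4, Dex had 61 member peaks higher (16.9%, against 12.1% of all tested) and 52 lower (14.4%, against 14.6%). With the replicate block these were 93 and 73, against 21.2% and 21.5% of all. Chemokine receptor peaks were higher in Dex at 16 (21.9%) and lower at 4 (5.48%) of 73. The higher peaks included all 6 of Cx3cr1, by 1.66 to 2.76. Adhesion peaks were higher at 12 (14.1%) and lower at 6 (7.06%) of 85. For P2Y peaks these were 11 and 11 of 38 (28.95% each), and for Gpr peaks 22 (13.4%) and 31 (18.9%) of 164. With the block they were 27 and 8, 20 and 7, 12 and 11, and 34 and 47. At start sites Dex was higher at 11, including Gpr35, Gpr141, P2ry13 and Cxcr3, and lower at 4, Cxcr2, Gpr176, Gpr89 and P2ry1. The share of start-site peaks of all genes was not computed here either. Without IL4 replicate 3 there were 31 higher calls.

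The GR peaks of these genes were short, with a median of 114 bp, and 48 of 66, at 24 genes, had enough reads for the test over 5183 peaks. Chemokine receptor genes had 14 of the 66, P2Y genes 5, adhesion genes 27 and Gpr genes 20. GR was higher with Cort at 2 member peaks (4.17%, against 12.8% of all tested) and lower at 4 (8.33%, against 14.8%). With Dex it was higher at 5 (10.4%, against 14.7%) and lower at 3 (6.25%, against 15.6%). With IL4 edgeR called no member and no peak at all (0%), with 3 of 48 and 612 of all at an unadjusted p under 0.05, and DESeq2 called no member.

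Cort replicate 4 stood apart in GR, with member peaks summing to 1138 CPM against 429 to 738 in the other 14 libraries. Without it Cort had 3 higher and 6 lower members. Vehicle replicate 4 had the lowest scaling factor, 0.392, and without it Cort had 2 higher and no lower members and Dex 5 higher and 1 lower.

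These GR counts depend on the scaling. Under total-count scaling the steroid calls at members were 14 higher and none lower with Cort and 21 higher and none lower with Dex, and of all calls 98.5% and 98.7% were higher, against 46.3% and 48.5%. That scaling moved the median log2 value of all peaks up by 0.78 with Cort and 0.98 with Dex. The fitted library factors reached at most 0.842 in vehicle and spanned 1.02 to 1.72 with the steroids. Batch 2 alone called none of 4714 peaks, with 1465 and 1210 at an unadjusted p under 0.05. The falls below are therefore relative to the fitted library factors. With these factors the median log2 value of all GR peaks was 0.17 with Cort and -0.12 with Dex.

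The largest GR gain was at Cxcr4, within the distal H3K27ac peak described above. At chr1:128614854-128615253, vehicle libraries 1 to 4 held 4.25, 0, 5.71 and 10.3 CPM, Cort 21.8, 30.5, 17.5 and 20.8, Dex 20.0, 25.7, 23.8 and 27.9, and the IL4 libraries 5.47, 8.69 and 6.77. No steroid library overlapped vehicle or IL4. GR rose by 2.22 ± 0.53 with Cort (adjusted p = 0.00775) and 2.30 ± 0.52 with Dex (0.00401). Batch 1 alone gave 3.87 and 3.65, and batch 2 alone 1.17 (adjusted p = 0.156) and 1.67 (0.123).

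Adgrg6 gained GR within its Dex-responsive intragenic H3K27ac peak, at chr10:14530980-14531362. Vehicle held 4.25, 5.57, 8.89 and 14.2 CPM, Cort 28.7, 28.6, 22.0 and 15.8, Dex 29.4, 35.9, 33.3 and 30.2, and IL4 11.6, 13.4 and 12.8. All steroid libraries lay above all vehicle and IL4 libraries. The changes were 1.53 ± 0.36 (adjusted p = 0.00709) with Cort and 1.96 ± 0.35 (0.00118) with Dex. The gain was larger in batch 1 (2.65 and 2.80) than in batch 2 (0.62 and 1.42), and the difference between batches was not tested.

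In Gpr141 GR rose with Dex by 2.08 ± 0.52 (adjusted p = 0.00686), from 1.42, 5.57, 1.27 and 2.58 CPM to 4 libraries between 7.14 and 13.1 CPM, with no overlap. Its Cort libraries, 6.49, 5.91, 2.26 and 8.44 CPM, overlapped vehicle (1.12, adjusted p = 0.143). A GR peak 0.729 kb outside Adgre1 rose with Dex by 1.71 ± 0.38 (adjusted p = 0.00363). The remaining GR rise, with Dex, was 0.99 (adjusted p = 0.0257) at chr9:123931705-123932207 near Ccr1, and it was lost without Dex replicate 2 or 3 (adjusted p up to 0.0906). No GR call was made at the GR peaks under the steroid-raised H3K27ac peaks of Gpr35 (0.18 with Cort and 0.13 with Dex) and P2ry14 (0.32 and 0.92), and the GR peak at Ccr6 had too few reads for the test.

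GR fell at a pair of other peaks near Ccr1. At chr9:123924439-123924616 vehicle held 102, 107, 90.2 and 221 CPM, Cort 63.5, 44.8, 66.1 and 64.2, and Dex 34.9, 44.6, 54.2 and 67.8. The steroid libraries all lay below vehicle (-1.10 ± 0.28, adjusted p = 0.0109, and -1.37 ± 0.28, 0.00234). Without vehicle replicate 4 the values were -0.68 (adjusted p = 0.0666) and -0.94 (0.0135), without Cort replicate 3 the Cort call was also lost, and under total-count scaling they were -0.19 and -0.24. At chr9:123926074-123926215 the values were -1.05 and -1.16, and without vehicle replicate 4 -0.61 (adjusted p = 0.179) and -0.72 (0.105). The Cort call there was also lost without Cort replicate 1 or 3 or vehicle replicate 1 or 2, and the Dex call without Dex replicate 2.

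Adgre1 had 16 GR peaks, of which 14 were called between the batches. Across the 48 tested members, 15 were higher in batch 1 (31.2%, against 17.5% of all tested) and 1 lower (2.08%, against 9.22%). Of the 15, 14 were at Adgre1 and 1 at Adgrd1, and the lower peak was at Adgre5. At 10 of the 14 Adgre1 peaks every batch 1 library lay above every batch 2 library. These were picked out by the batch test itself, and the share of all GR peaks separated in this way was not computed. At chr17:57447865-57448013, for example, the vehicle libraries of batch 1 held 24.1 and 31.2 CPM and those of batch 2 1.27 and 5.17, and the Dex libraries 18.3 and 13.6 against 1.19 and 1.39. GR at chr17:57449889-57450117 was called lower with Cort (-1.57, adjusted p = 0.0225) and Dex (-1.39, 0.0307), and at chr17:57447865-57448013 with Cort (-1.13, 0.0319). Without vehicle replicate 4 the first of these gave -0.94 (adjusted p = 0.0688) and -0.77 (0.106), and its calls were also lost without Cort replicate 1, 2 or 3 and without Dex replicate 3 or 4. The Cort call at the other was lost without Cort replicate 1 or 3 or vehicle replicate 2 or 4 (adjusted p up to 0.117). What sets the batches apart beyond their number is not stated in the labels.

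**Figure D5:**
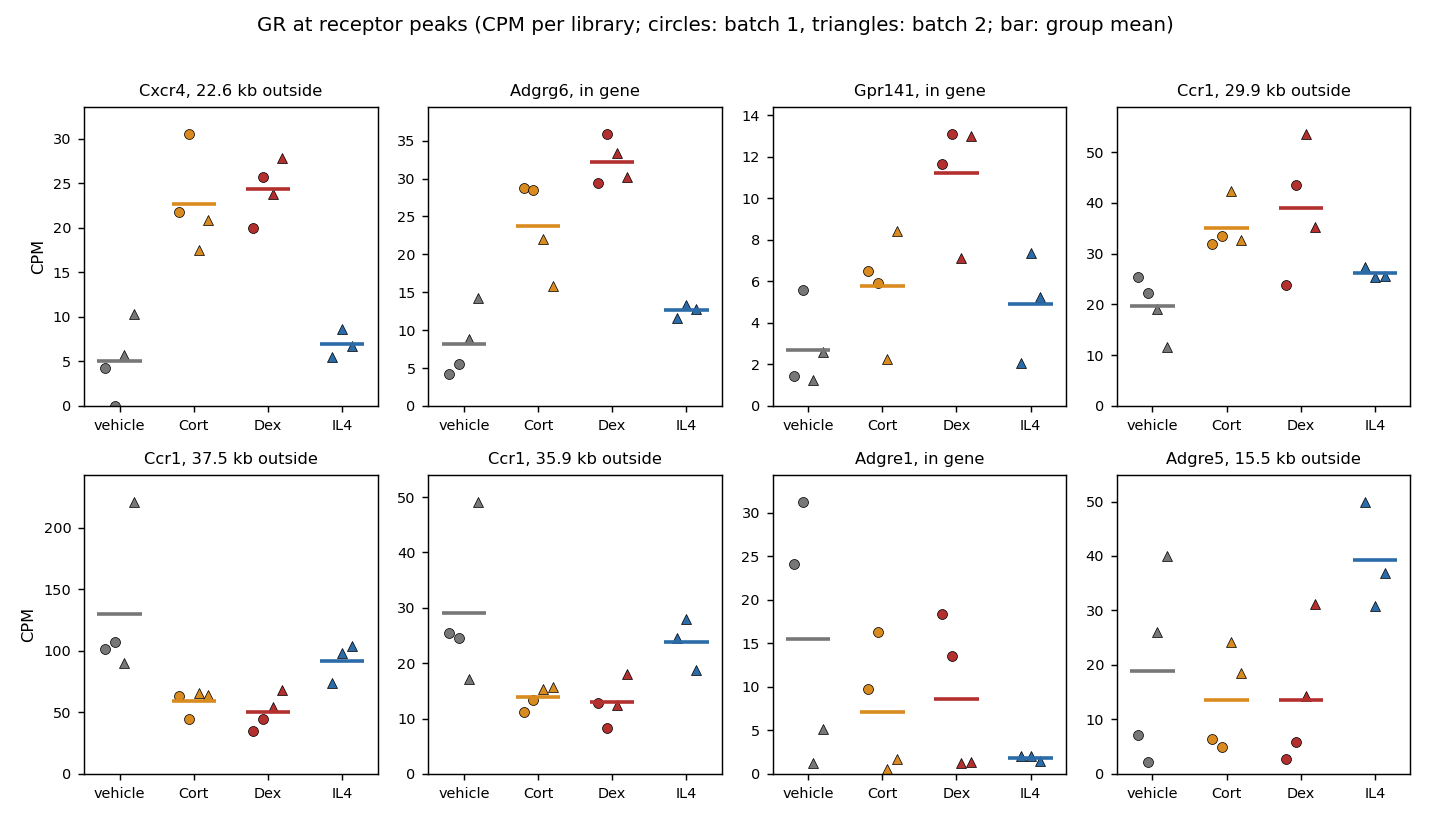
GR level (CPM, vertical axis) in each of the 15 libraries at 8 member peaks, by treatment, with circles for batch 1 and triangles for batch 2. Steroid libraries lie above vehicle at Cxcr4 and Adgrg6 in both batches, while the Adgre1 and Adgre5 panels separate by batch.

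GR and H3K27ac were set side by side at the members. Of 376 H3K27ac peaks, 35 (9.31%) overlapped a GR peak by at least 1 bp, against 6.18% of all. By the same rule 39 of 66 GR peaks (59.1%) overlapped an H3K27ac peak, against 52.9%. Requiring 50% of the GR peak left 34 of the 376 (9.04%, against 6.06%), and counting only tested GR peaks left 30 (7.98%, against 5.12%). Of the 35, Dex raised 6 and lowered none, and of the 325 tested members without a GR peak it raised 3 and lowered 7. Over all tested peaks the Dex shares were 16.8% higher and 1.38% lower with a GR peak, and 1.93% and 2.41% without. Cort raised 4 (11.4%) and lowered none of the 35, at Cxcr4, Ccr6, Gpr35 and P2ry14, against 9.71% and 0.256% of all peaks with a GR peak. IL4 raised 2 (5.71%) and lowered 9 (25.7%) of them, against 13.9% and 18.2%.

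The other genes of the pathway were described from 3 lists. For comparison, of all tested peaks Cort raised 1.18% and lowered 0.376%, Dex 2.9% and 2.34%, and IL4 14.7% and 12.9%. With the replicate block these shares were 6.44% and 6.13%, 9.91% and 10.3%, and 21.9% and 21.6%. Whether a list differs from these shares was not tested. Of 259 peaks at 29 of 30 genes for G proteins, their kinases and regulators, Cort raised 1 and lowered none, Dex raised 6 and lowered 8, and IL4 raised 29 and lowered 38. Gng2, a G protein gamma subunit, had the Cort rise (1.89), and the same peak rose with Dex by 2.03. Grk5, a receptor kinase, had peaks called in both directions with IL4, with a rise of 2.64 at the peak with the smallest p. Of 108 peaks at 26 of 30 genes for chemokine, nucleotide and oxysterol ligands and their enzymes, Cort raised 1 and lowered 1, Dex raised 3 and lowered 3, and IL4 raised 14 and lowered 9. Cx3cl1, which encodes fractalkine, the Cx3cr1 ligand, fell with IL4 by 2.00. Of 84 peaks at 22 of 23 atypical chemokine and other chemoattractant receptor genes, Cort raised 2 and lowered none, Dex raised 4 and lowered 4, and IL4 raised 9 and lowered 23. Among them Fpr2, a formyl peptide receptor, fell with IL4 at 1 peak by 2.46 and Ltb4r1, the leukotriene B4 receptor, rose by 2.14. With the replicate block the counts on these lists were 18 and 21, 28 and 32, and 54 and 58 for the G protein list in the same order, 16 and 9, 19 and 9, and 29 and 27 for the ligands, and 7 and 10, 13 and 17, and 15 and 33 for the receptors.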

How the data were processed

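The deposited tables give raw read counts per peak for each library, made by the authors. Per the submitters' processing notes the tools were fastp, Bowtie2, SAMtools, MACS2 and featureCounts with mm10; versions and the criterion of a column named filtered are not given in the sources used here. Columns lettered C were taken as vehicle by elimination. An input library was not analysed here.

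Peaks were given to the nearest protein-coding span within 50 kb. Members and gene lists were chosen with earlier results of these data known. edgeR 4.0.16 (R 4.3.3) quasi-likelihood tests used all libraries of an assay, filterByExpr, TMM scaling, a batch term for GR, and Benjamini-Hochberg adjustment over all tested peaks (threshold 0.05). The test was checked on simulated counts. The rule for named genes took the 25 members with the smallest p in each H3K27ac comparison with vehicle, the 4 densest per group, up to 10 GR peaks per comparison, genes with opposite calls and the 5 smallest p in Dex against IL4 and against Cort; other peaks, and the test of the GR batch term, were chosen after values were seen. Some genes that the rule names are not reported here. CPM is counts per 1000000 scaled counts in tested peaks. Counting error limits peaks of a few CPM. Same-numbered H3K27ac libraries had residual correlations of 0.268 to 0.678, and differently numbered ones -0.449 to 0.0406. The numbers therefore pair these libraries, and the reported H3K27ac fit leaves that pairing out, while the block fit uses it. The GR numbers do not pair the libraries. DESeq2 1.42.0, other scalings, filters, distances, blocks and leaving out each library were alternatives.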

Additional observations from a re-analysis of the deposited data

Results flagged for a closer look

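Groups of 4 GR libraries were checked at the named member peaks and at the sum of all GR members. Of these 54 groups, 5 held a library outside Dixon's 95% limit, where chance gives about 1 in 20. At the Ccr1 peak chr9:123924439-123924616, vehicle replicate 4 held 221 CPM against 90.2 to 107 in the others, and Cort replicate 2 held 44.8 CPM against 63.5 to 66.1. At a Gpr174 peak, chrX:107346283-107346409, Cort replicate 4 held 99.6 CPM against 0.463 to 5.08. At a P2ry2 peak, chr7:100992237-100992547, vehicle replicate 4 held 6.46 CPM against 9.53 to 10.0, and at an Adgre5 peak, chr8:83738280-83738376, Dex replicate 2 held 7.75 CPM against 2.77 to 3.57. Over all 198 such groups at the 66 GR members, 25 held such a library, and it was Cort replicate 4, with a higher value, at 15.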

How the results depend on the processing

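Called counts are given as higher and lower member peaks. The replicate block, which pairs the H3K27ac libraries, gave 31 and 28 for Cort, 41 and 43 for Dex, 75 and 102 for IL4 and 93 higher for Dex over IL4. In GR, where the numbers did not pair the libraries, it gave 4 higher for Cort. DESeq2 gave 10 and 4 for H3K27ac Cort, 15 and 12 for Dex, and 7 lower for GR Cort. Fitting the compared groups alone gave 2 and 0 for H3K27ac Cort, 4 lower for Dex and 2 lower for GR Cort. Requiring a log2 change of at least 1 gave 3 higher for Cort and 3 lower for Dex. A 10 kb limit gave 3 higher for Cort, 34 lower for Dex over IL4, and in GR 1 and 2 for Cort and 3 and 1 for Dex. Scaling on the lowest-count peaks gave 3 higher for Cort and 14 and 4 for Dex; total-count scaling gave 12 lower for Dex, and in GR 14 and 0 for Cort and 21 and 0 for Dex. In GR, batch 1 alone gave 2 lower for Cort and 3 higher for Dex, batch 2 alone 0 throughout, no batch term 1 lower for Cort, and no count filter 0 lower for Cort and 1 lower for Dex. Leaving out 1 library gave 2 to 5 and 0 to 1 for H3K27ac Cort, 6 to 18 and 1 to 10 for Dex, 33 to 47 and 37 to 55 for IL4, 31 to 62 and 38 to 42 for Dex over IL4, and in GR 2 to 5 and 0 to 6 for Cort and 4 to 7 and 1 to 4 for Dex. The causes of these shifts were not tested. Among the peaks named by rule the sign changed at 1, the GR peak of Adgrl2 at chr3:148918501-148918692 with Dex, at -0.88 in the reported fit and 0.12 under total-count scaling. Of the other GR peaks described, that of Adgre1 at chr17:57447865-57448013 changed sign with Dex, from -0.86 to 0.14 under the same scaling, and none of these was a call. The 25 IL4 peaks with the smallest p (1 a gene) and the 5 such Dex over IL4 peaks kept their direction and call under every alternative run, and other IL4 calls were lost as the report gives. Peaks of a few CPM, and GR peaks generally, rest on few reads.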
